A study of Citrus reticulata with 36 samples.

Results

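The 100 features described here had a higher level in the ovules of the citrus cultivar labelled MT than in those of the cultivar labelled WT, in both captured tissues and at all 3 stages sampled. They were chosen from the deposited count table of 128861 features. Counts were scaled to the library total as CPM, log2(CPM + 1) was taken, and the median of the 3 replicates stood for each of the 12 groups. A total of 40462 features had a group median of 2 or more on this scale, and of these 1292 (3.19%) had an MT median above the WT median in all 6 combinations of tissue and stage. The members are the 100 of these whose smallest difference among the 6 was largest. MT and WT values therefore chose the members, and every MT and WT value below is a description without a test.

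The libraries come from laser capture microdissection of Citrus reticulata ovules, in which cells of a chosen tissue are cut out of a section under the microscope and their RNA is amplified before sequencing. MT is the cultivar Huagan No.4 ponkan and WT is the cultivar Egan No.1 ponkan, and the labels do not spell out either abbreviation. Each cultivar gave nucellus and integument captures at 18, 28 and 32 days after pollination (DAP), with 3 libraries for each of the 12 groups, 36 in all. The groups were MT nucellus, MT integument, WT nucellus and WT integument, each at these 3 stages, and the labels name no treatment. The design text calls the 3 libraries biological replicates, but the labels tie no capture to a plant or an ovule. Libraries of both tissues may share ovules, and p-values then measure only the spread between these libraries.

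The nucellus is maternal tissue that encloses the embryo sac, and the integument outside it becomes the seed coat. In polyembryonic citrus, embryos of purely maternal origin arise from nucellar cells and develop beside or in place of the zygotic embryo. The feature identifiers carry no gene names, so no role can be given for any member, and neither tissue label could be checked against marker genes. In such bulk captures, fewer cells of a type and less RNA per cell cannot be told apart.

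Library totals ran between 12687779 and 20947644 counts, so a count of 0 allows at most 0.143 to 0.236 CPM, taken as 3 counts per library. This floor covers counting error only, since amplified reads without molecular tags are not independent molecules. All 100 members were among the 57344 features that passed the count filter of the edgeR fit, and 96 of them had counts in all 36 libraries, beside 91.8% of the features at the same level. WT nucellus at 28 DAP replicate 1 stood apart: its 100 most abundant features held 51.7% of its counts, and its TMM scaling factor of 0.592 was the lowest, beside a highest factor of 1.23. CPM per library below is TMM-scaled, while the differences that chose the members are on plain CPM. The floor given above is on plain CPM too. It is higher on the TMM scale in a library with a low factor, such as WT nucellus at 28 DAP replicate 1.

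The differences were small. The largest smallest-of-6 difference among the members was 0.63 on the log2(CPM + 1) scale (1.54-fold), and the median was 0.27 (1.21-fold). The values just inside the limit of the list were 0.2303 and 0.2301, and those just outside were 0.2295 and 0.229, so the list has no natural edge. Only 2 members differed by 0.5 or more in all 6 combinations, and 0 differed by 1 or more in all 6. Taking for each member the median of its 6 differences, the median over members was 0.51 (1.42-fold). Larger differences occurred in single combinations: 47 members reached 1 and 12 reached 2 in at least 1 of the 6. By the ratio of mean TMM-scaled CPM over the 18 MT libraries to that over the 18 WT libraries, the median member stood at 1.47 and 11 members at 2 or more.

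**Figure D1:**
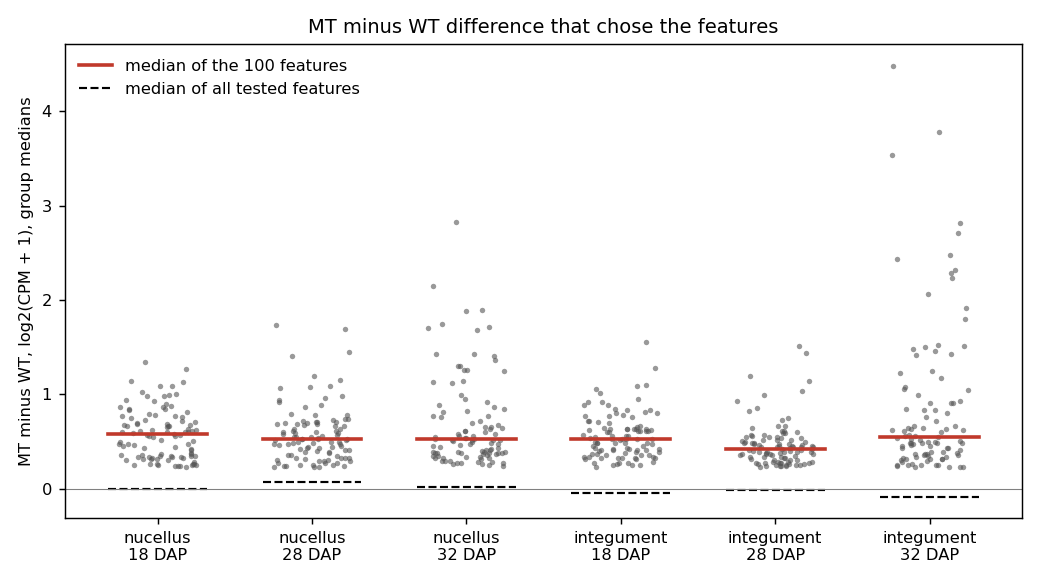
Difference of group medians, MT minus WT on the log2(CPM + 1) scale, for each of the 100 members (points) in each of the 6 combinations of tissue and stage, with the median of the members (red) and of all tested features (dashed). All points lie above 0 because the rule required it; the medians run between 0.43 in the integument at 28 DAP and 0.58 in the nucellus at 18 DAP, and the highest single value, 4.48, is in the integument at 32 DAP.

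The 28 DAP integument had the smallest differences and the 32 DAP integument the widest. The median difference over members was 0.58, 0.53 and 0.52 in the nucellus at 18, 28 and 32 DAP, and 0.53, 0.43 and 0.55 in the integument at the same stages. The corresponding medians over all tested features lay between -0.08 and 0.07. The smallest of a member's 6 differences fell in the 28 DAP integument for 30 members, and in each of the other combinations for 11 to 17. The largest fell in the 32 DAP integument for 32 members, where 26 members differed by 1 or more, and in the 28 DAP integument for 4.

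Replicates overlapped for most members in most combinations. Separation was judged on TMM-scaled CPM. In the nucellus, all 3 MT libraries lay above all 3 WT libraries for 46 members at 18 DAP, 26 at 28 DAP and 40 at 32 DAP, beside 7.5%, 6.74% and 9.67% of all tested features. In the integument the counts were 38, 20 and 53 members at 18, 28 and 32 DAP, beside 7.79%, 6.6% and 9.99% of all tested features. The rule used these same libraries, so nothing is read from these counts. For 8 members the replicates overlapped in all 6 combinations, beside 64.4% of all tested features. Another 20 members were separated in 1 combination, 33 in 2, 22 in 3 and 15 in 4, beside 25.5%, 7.96%, 1.88% and 0.281% of all tested features. c80321_g1 was separated in 5 and c28106_g1 in all 6, where it was the only 1 of the 57344 tested features. On FPKM the replicates of c28106_g1 overlapped in the nucellus at 32 DAP and in the integument at 18 and 28 DAP. For 0 members did all 18 MT libraries lie above all 18 WT libraries.

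**Figure D2:**
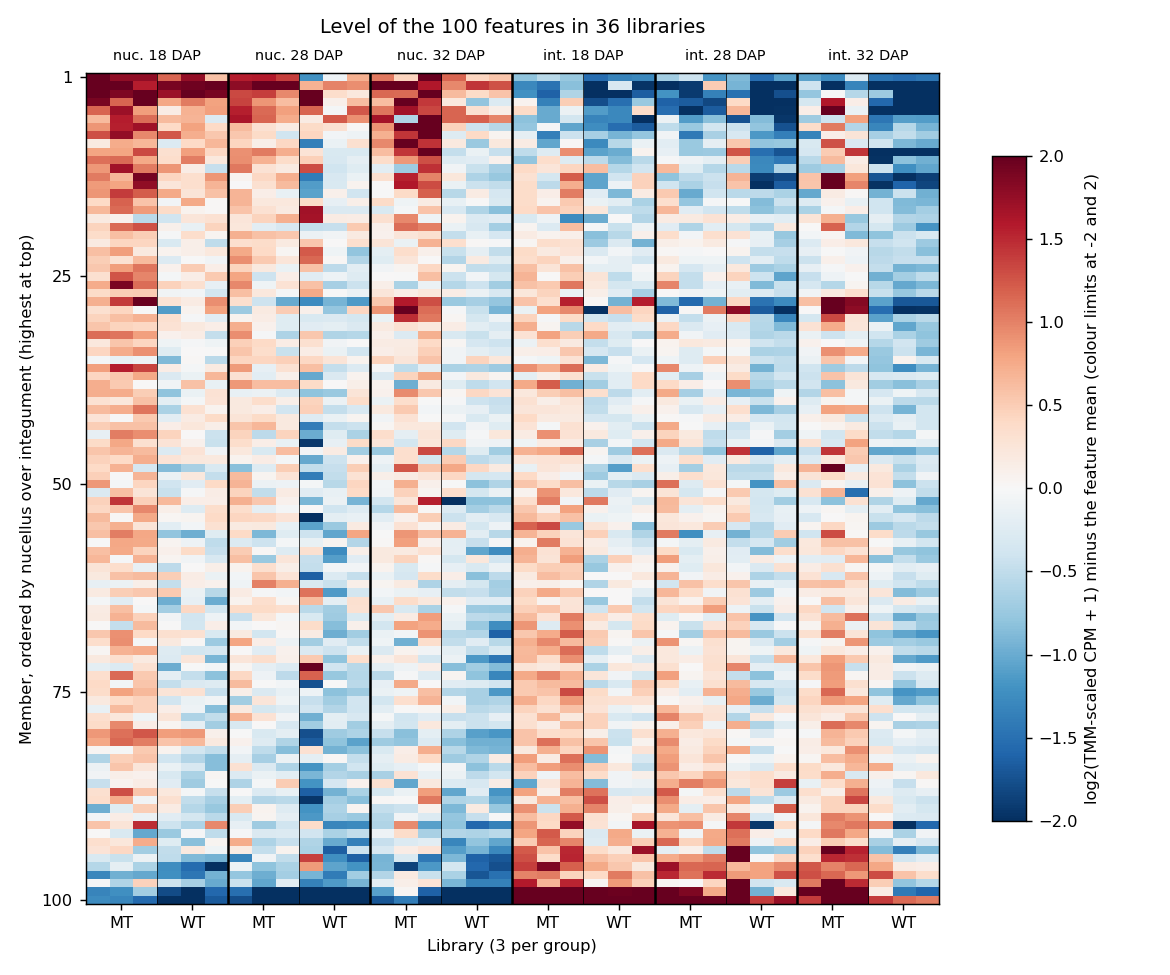
Level of the 100 members in the 36 libraries as log2(TMM-scaled CPM + 1) minus the member's own mean over libraries, with colours limited at -2 and 2; rows are members ordered by nucellus over integument with the highest at the top, and MT libraries stand left of WT libraries within each tissue (nuc., nucellus; int., integument) and stage. MT columns are mostly on the higher side, with single libraries of either cultivar that go the other way, and the rows at the top and bottom show the members that differ most between tissues.

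Summed over the members, the share of a library's counts was 0.291% to 0.772% in the MT libraries (median 0.444%) and 0.226% to 0.420% in the WT libraries (median 0.279%). These ranges over all stages and tissues overlapped, but within a tissue and stage they did not in 5 of the 6 combinations. In the nucellus at 18 DAP, where the shares were highest, they were 0.545% to 0.772% in MT, against 0.263% to 0.420% in WT. Only in the integument at 28 DAP did they overlap: 0.291% to 0.545% in MT, against 0.241% to 0.356% in WT. The rule used these same counts, so nothing is read from the lack of overlap. The sum is also weighted to the most abundant members, c58422_g1 with 361092 and c113478_g1 with 162051 counts over the MT libraries.

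For some members, single libraries lay beyond all 3 libraries of the other cultivar, against the direction of the rule. Among MT libraries, 11 members in integument at 28 DAP replicate 2 and 9 in nucellus at 32 DAP replicate 2 were below all 3 WT libraries of the same tissue and stage, and the other 16 MT libraries had 1 to 6 such members. Among WT libraries, 35 members in integument at 28 DAP replicate 1 and 22 in nucellus at 28 DAP replicate 1 were above all 3 MT libraries, and the other 16 had 0 to 7. These counts were not taken over all tested features, so they are not read as a trait of the libraries or the members. Because the rule takes medians, 1 library of a group can lie far from the other 2 without removing a member. c97382_g1, picked out after its values were seen, was the only 1 of the 100 with a higher mean in WT: 17.4 ± 4.58 CPM over the MT libraries and 18.3 ± 18.5 CPM over the WT libraries (SD, n = 18 each), with 88.9 CPM in WT nucellus at 28 DAP replicate 1.

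The member separated in all 6 combinations on TMM-scaled CPM, c28106_g1, showed how narrow a separation can be. In the nucellus at 18 DAP it had 30.9, 40.2 and 36.7 CPM in MT, against 26.9, 28.2 and 20.3 CPM in WT. In the nucellus at 28 DAP it had 18.7, 14.6 and 11.3 CPM in MT, against 4.92, 9.73 and 7.90 CPM in WT. In the nucellus at 32 DAP it had 10.5, 9.74 and 14.4 CPM in MT, against 9.43, 8.56 and 8.54 CPM in WT. The nearest MT and WT libraries at 32 DAP were therefore less than 1 CPM apart. In the integument at 18 DAP it had 26.8, 39.1 and 27.2 CPM in MT, against 26.5, 12.7 and 18.6 CPM in WT. In the integument at 28 DAP it had 34.8, 19.7 and 23.4 CPM in MT, against 17.1, 18.2 and 18.2 CPM in WT. In the integument at 32 DAP it had 19.7, 28.0 and 24.6 CPM in MT, against 14.1, 15.6 and 14.9 CPM in WT. It ranked only 78 in the list, since its smallest difference was 0.25, in the nucellus at 18 DAP. The separation did not hold on FPKM. There the lowest MT value was 3.64 against a highest WT value of 4.15 in the nucellus at 32 DAP. In the integument these were 9.84 against 12.43 at 18 DAP and 6.5 against 7.35 at 28 DAP.

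The members at the top of the list by the rule overlapped between cultivars. c37298_g1, with the largest smallest-of-6 difference (0.63), had 1.88, 4.41 and 18.1 CPM as the lowest, median and highest of the MT libraries, against 0.489, 1.89 and 20.5 CPM in the WT libraries. Its highest value of all was in WT integument at 28 DAP replicate 1, where the other 2 WT libraries had 1.66 and 1.77 CPM and the 3 MT libraries 3.12, 3.97 and 2.25 CPM. It was separated in 2 combinations. c54395_g1, the next by rank (0.61), had 3.62, 11.4 and 47.3 CPM as the lowest, median and highest in MT, against 0.949, 4.77 and 13.9 CPM in WT. It was widest apart in the 32 DAP integument, with 11, 47.3 and 13.3 CPM in MT, against 1.45, 0.949 and 1.19 CPM in WT. The same WT library, integument at 28 DAP replicate 1, was high for it too, at 12.0 CPM beside 1.16 and 1.30 CPM in its replicates.

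The most abundant members differed by less than 2-fold in their means over all libraries of a cultivar, and by more in single combinations. c58422_g1, the most abundant over MT libraries, had a mean of 1209 ± 600 CPM over the MT libraries and 716 ± 248 CPM over the WT libraries (SD, n = 18 each), and its mean FPKM, which is also scaled by length, was 615 in MT and 346 in WT. c113478_g1 had a mean of 525 ± 124 CPM over the MT libraries and 371 ± 110 CPM over the WT libraries, with a mean FPKM of 259 in MT and 181 in WT. The difference that chose them reached 1.27 for c58422_g1, in the nucellus at 18 DAP, and 1.15 for c113478_g1, in the nucellus at 28 DAP. Both had overlapping ranges over the 18 libraries of each cultivar. No member was at 0 in all WT libraries. The 2 with the fewest WT counts were c37332_g1, with 859 counts over the MT libraries and 413 over the WT libraries, and c2741_g1, with 526 in MT and 414 in WT. Their median CPM was 1.90 in MT and 1.04 in WT for c37332_g1, and 1.68 in MT and 1.14 in WT for c2741_g1. For both, the ranges over libraries overlapped between the cultivars.

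**Figure D3:**
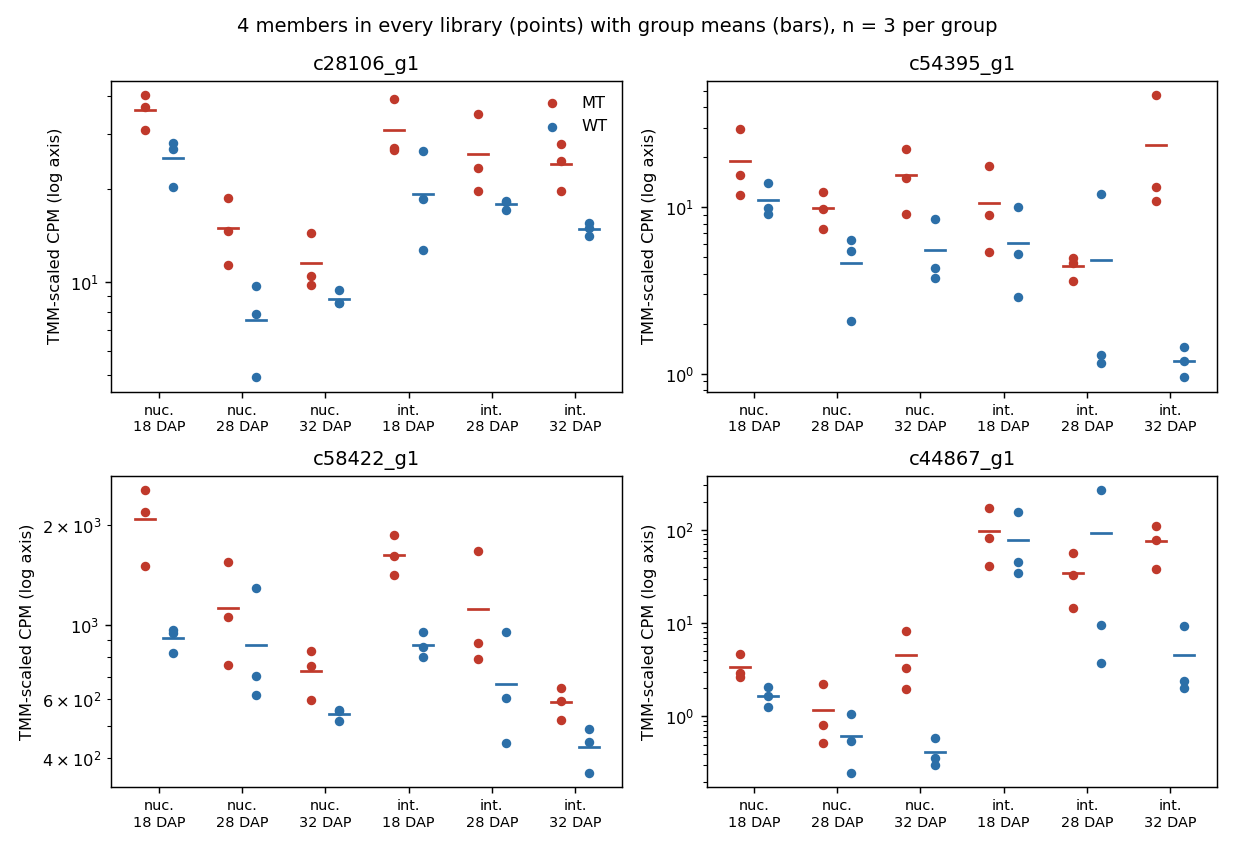
TMM-scaled CPM per library, on a log axis, of c28106_g1, c54395_g1, c58422_g1 and c44867_g1, with MT left of WT in each tissue (nuc., nucellus; int., integument) and stage; points are the 3 libraries and bars their mean. On this scale c28106_g1 is separated in all 6 combinations, while c44867_g1 reaches its highest value, 265 CPM, in WT integument at 28 DAP replicate 1.

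A list chosen for its medians can be read in libraries that took no part in the choice. The rule was applied to 2 of the 3 replicate numbers, 100 features were taken, and their MT minus WT differences were read in the 12 libraries of the number left out. The list itself changed much: without replicate 1, 2 and 3 it held 24, 18 and 11 of the 100 members. The values below therefore describe lists made by the rule more than these members. Of the 600 differences in the libraries left out, 383 (63.8%), 398 (66.3%) and 430 (71.7%) were above 0, beside 52.0%, 44.7% and 55.3% over all features at that level. The median difference was 0.23, 0.23 and 0.55 there, against 0.63, 0.67 and 0.50 in the libraries that chose, and 0.03, -0.08 and 0.08 over all features at that level. Only 7, 9 and 11 of the 100 were above 0 in all 6 combinations, beside 2.45%, 2.45% and 4.59% of all features at that level. Each difference here rests on 1 MT and 1 WT library. The 600 differences come from only 12 libraries, so the features are not independent readings and the percentages are a description.

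The counts by tissue and stage each compare 1 MT library with 1 WT library, so no stage is read as one where the direction held. Shifts of whole libraries enter them: with replicate 1 left out, the median over all features at that level was 0.82 in the 28 DAP nucellus. With replicate 1, 2 and 3 left out, 45, 39 and 35 of the 100 chosen features were higher in MT in the 28 DAP integument, beside 61.3%, 32.7% and 56.7% of all features at that level. Their median difference there was -0.06, -0.22 and -0.19, beside 0.21, -0.21 and 0.09 over all features at that level. In the 28 DAP nucellus the counts were 68, 65 and 33, beside 79.0%, 58.0% and 43.6%. At 18 DAP the counts were 70, 91 and 93 in the nucellus, beside 42.0%, 48.8% and 70.3%, and 65, 85 and 90 in the integument, beside 40.0%, 49.8% and 57.3%. At 32 DAP the counts were 66, 58 and 93 in the nucellus, beside 43.5%, 41.0% and 57.2%, and 69, 60 and 86 in the integument, beside 46.1%, 37.9% and 46.9%. Lists chosen in the same way for higher WT had 57.5%, 71.0% and 67.7% of their 600 differences in the chosen direction when replicate 1, 2 and 3 were left out, beside 47.9%, 55.2% and 44.5% over all features at that level.

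**Figure D4:**
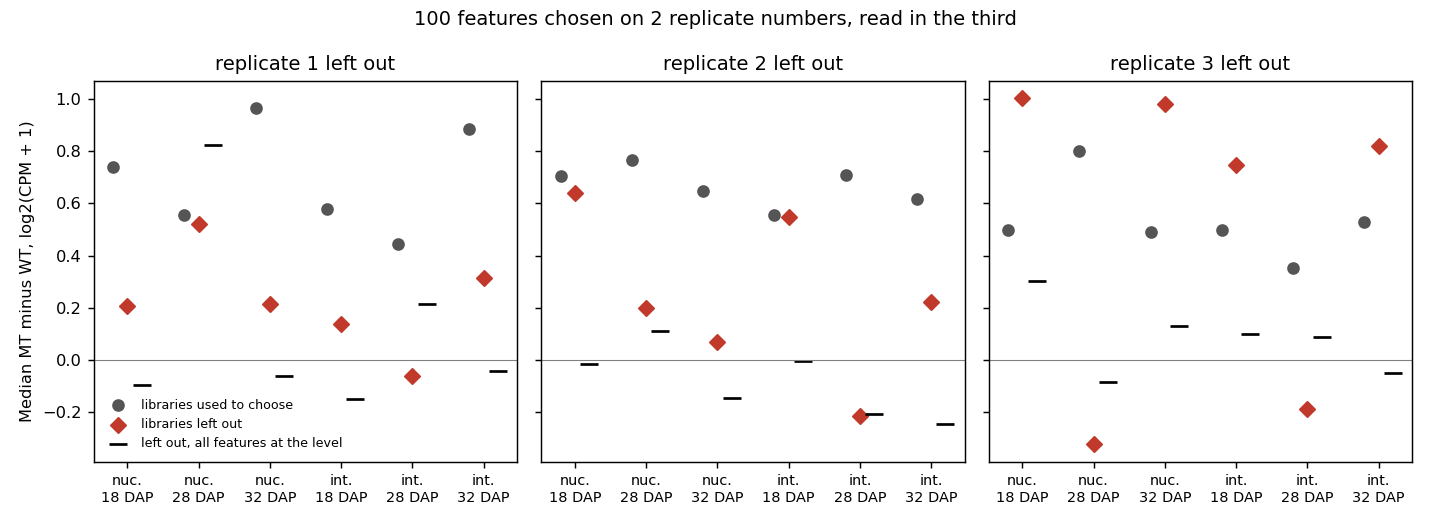
Features chosen on 2 replicate numbers and read in the third: median MT minus WT difference on the log2(CPM + 1) scale in each tissue (nuc., nucellus; int., integument) and stage, in the libraries that chose (circles), in those left out (diamonds), and over all features at the level in those left out (bars). In the libraries left out the chosen features lie above all features at 18 and 32 DAP for each number left out, and below them at 28 DAP except in the nucellus with replicate 2 left out.

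The list also moved with the scaling of the rule. On TMM-scaled CPM, 87 of the 100 members were still higher in MT in all 6 combinations, but only 51 ranked among the first 100. With the mean of the replicates in place of the median, 81 stayed higher in all 6 and 30 ranked among the first 100. Leaving out any 1 of the 6 integument libraries at 28 DAP kept 52 to 63 of the members in the list, and leaving out any 1 of the other 30 libraries kept 73 to 90. The fewest, 52, remained without WT integument at 28 DAP replicate 1.

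The members were more abundant than most tested features, and their deviations between replicates were correlated. Their median FPKM was 7.56, beside 2.92 over tested features and 5.13 over features at the same level, and the median length implied by count and FPKM was 2036 bases, beside 1975 over tested features. Their median biological coefficient of variation, edgeR's estimate of the relative spread between replicates, was 0.331, beside 0.399 over tested features and 0.332 at the same level. Over the 4950 pairs of members, the mean correlation of deviations from the group means over 36 libraries was 0.156, beside 0.00231 over all pairs of tested features. These deviations share libraries and depth. No such mean was taken over features at the same level, so the value is not read as particular to the members.

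Among pairs of members, 7 had a correlation of log2 CPM above 0.9 over the 36 libraries. These pairs were picked out after their values were seen. The closest were c54395_g1 with c27981_g1 (r = 0.980), c112983_g1 with c29904_g1 (r = 0.970) and c24617_g1 with c2696_g1 (r = 0.957). c28106_g1 and c80321_g1, the members separated in the most combinations, were also such a pair (r = 0.944). The counts are estimates that split reads between similar sequences, and the files do not show whether such a pair are copies or parts of the same gene.

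The rule did not compare the tissues, but it asked for a higher MT median in each. Every member therefore had some MT level in both tissues, which the tested features need not have. In the edgeR quasi-likelihood fit over all 36 libraries, 49 of the 100 members differed between nucellus and integument at an adjusted p under 0.05, beside 35.5% of all tested features. Of these, 27 were higher in the nucellus and 22 lower, beside 16.6% higher and 18.9% lower over all tested features. Of those called at 2-fold or more, 10 were higher and 7 lower, beside 5.39% and 11.2% of all tested features. The members' median log2 fold change was 0.06, beside 0.04 over all tested features, so by its median the list leaned to neither tissue. Among called members more were higher in the nucellus than lower, while over all tested features more were lower. No share over features at the same level is given, so these counts are not read as particular to the members.

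The members highest in the nucellus relative to the integument were c3841_g1 and c48157_g1. c3841_g1 had 0.250, 5.48 and 13.4 CPM as the lowest, median and highest of the 18 nucellus libraries, against 0, 0.311 and 1.36 CPM in the integument libraries. The edgeR log2 fold change was 4.21 ± 0.36 (SE, adjusted p = 4.5e-11), and the tissues overlapped through WT nucellus at 28 DAP replicate 1, the lowest nucellus library. Its 0.250 CPM lay near the counting floor of that library on the TMM scale. On the log2(FPKM + 1) scale, which understates changes of low features, the difference of c3841_g1 was 1.41. c48157_g1 had 16.9, 39.0 and 102.3 CPM in the nucellus, against 0.118, 1.88 and 14.8 CPM in the integument, without overlap. The edgeR log2 fold change was 4.13 ± 0.42 (adjusted p = 8.6e-09).

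The members lowest in the nucellus relative to the integument were c88093_g1 and c44867_g1. c88093_g1 had 0.332, 1.43 and 3.54 CPM in the nucellus, against 21.2, 46.6 and 118 CPM in the integument, without overlap, which edgeR put at -5.07 ± 0.19 in log2 fold change (SE, adjusted p = 1.3e-18). c44867_g1 had 0.250, 1.45 and 8.33 CPM in the nucellus, against 2.04, 39.4 and 265 CPM in the integument, with overlap, which edgeR put at -4.98 ± 0.47 in log2 fold change (adjusted p = 1.7e-09). It also held the widest cultivar difference of the list, 4.48 in the 32 DAP integument. All 4 were thus features of mainly 1 tissue that met the cultivar rule in the other tissue at low levels.

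Most members were lower at 28 and 32 DAP than at 18 DAP, though few changes passed the test for single features. In the nucellus the median log2 fold change over members was -0.38 at 28 against 18 DAP, with 78 of 100 below 0, and -0.32 at 32 against 18 DAP, with 83 below 0. In the integument it was -0.18 at 28 against 18 DAP, with 75 below 0, and -0.30 at 32 against 18 DAP, with 84 below 0. Over all tested features these 4 medians lay between 0.00 and 0.01. The contrasts against 18 DAP share the 18 DAP libraries within a tissue. Below 0 in both tissues were 64 members at 28 DAP and 76 at 32 DAP, beside 32.3% and 31.3% of all tested features. The tissues are not independent, since same-numbered nucellus and integument libraries deviated together in 17 of 18 pairs (correlation over 0.1). Between 32 and 28 DAP the members' median was -0.01 in the nucellus and -0.12 in the integument.

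Lower levels were also counted in each cultivar by itself. These counts use medians of the same 12 groups that chose the members, so they are not independent of the rule. By medians of TMM-scaled log2(CPM + 1), 82 members were lower in the MT nucellus at 28 than at 18 DAP and 78 at 32 than at 18 DAP, against 75 and 89 in the WT nucellus. In the integument 84 and 66 were lower in MT at 28 and 32 DAP, against 76 and 79 in WT. Over all tested features, 47.8% to 52.2% were lower in these 8 comparisons. Without WT nucellus at 28 DAP replicate 1 the nucellus median at 28 against 18 DAP was -0.42, and without WT integument at 28 DAP replicate 1 the integument median at 28 against 18 DAP was -0.33. Over all alternatives this integument median was nearest 0, at -0.12 with 64 members below 0, without WT integument at 28 DAP replicate 2.

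The 100 features chosen in the mirrored way, for the largest smallest-of-6 difference in favour of WT, had medians on the other side of 0. In the nucellus theirs were 0.40 at 28 against 18 DAP and 0.47 at 32 against 18 DAP, with 30 and 7 of 100 below 0. In the integument theirs were 0.29 at 28 against 18 DAP and 0.31 at 32 against 18 DAP, with 31 and 22 below 0. The 1292 features from which the members were taken had medians of -0.17 and -0.25 in the nucellus and -0.12 and -0.22 in the integument at 28 and 32 against 18 DAP. The difference between these lists was not tested, and all of them are read in the same libraries.

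**Figure D5:**
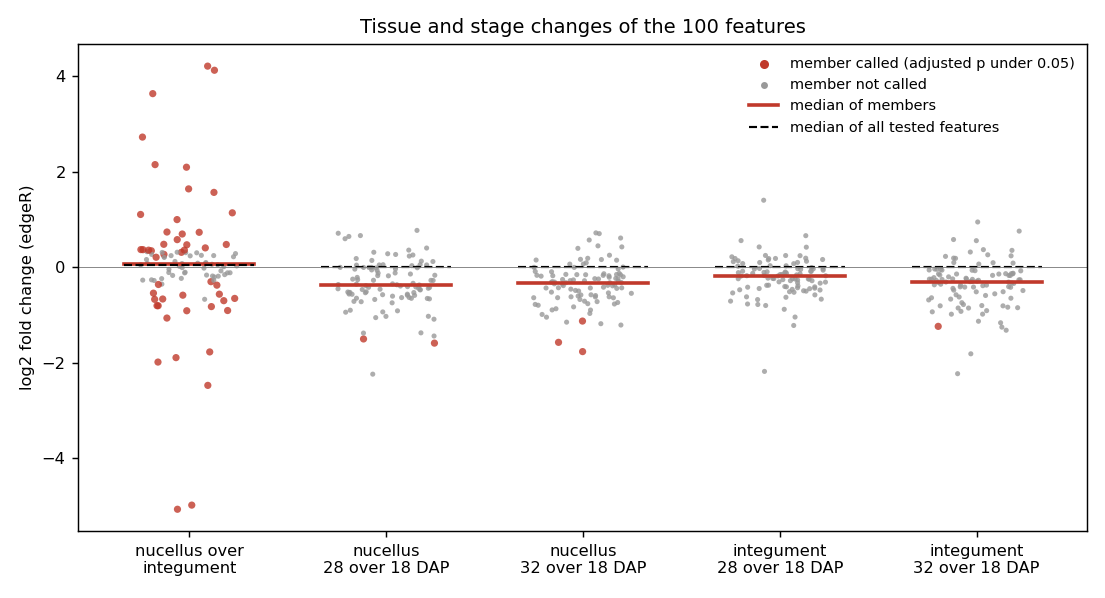
The edgeR log2 fold changes of the 100 members, averaged over both cultivars, for nucellus over integument and for 28 and 32 over 18 DAP within each tissue; red points passed an adjusted p of 0.05, red lines are the members' medians and dashed lines those of all tested features. The members' medians lie below 0 in the 4 contrasts against 18 DAP, between -0.38 and -0.18, while those of all tested features lie at 0.00 to 0.01.

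Few single members passed the test for a change with stage. At 28 against 18 DAP in the nucellus, 0 members rose and 2 fell in edgeR at an adjusted p under 0.05, beside 0.0732% of all tested features that rose and 0.0575% that fell (0.131% in either direction). At 32 against 18 DAP in the nucellus 0 members rose and 3 fell, beside 0.0453% and 0.0471% of all tested features (0.0924% in either direction). At 32 against 18 DAP in the integument 0 rose and 1 fell, beside 0.0122% and 0.0157% (0.0279% in either direction). In the other 3 stage contrasts edgeR called 0 members and 0% of all tested features. At an unadjusted p under 0.05 these 3 had 11 members at 28 against 18 DAP in the integument (beside 9.58% of all tested features), 19 at 32 against 28 DAP in the nucellus (9.17%) and 9 at 32 against 28 DAP in the integument (4.92%). In the same order, DESeq2 called 1, 0 and 0 members, beside 0.316%, 0.075% and 0.11% of all tested features. Limma voom called 9, 0 and 0, beside 2.15%, 0.014% and 0.0331%.

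c28106_g1 and c80321_g1 were the members that fell at both later stages in the nucellus. They are also a close pair (r = 0.944 over the 36 libraries) and may not be separate genes. The calls at 28 DAP in the nucellus were this pair alone, and those at 32 DAP were this pair and c58422_g1. c28106_g1 averaged 11.2 ± 4.92 CPM at 28 DAP and 30.5 ± 7.15 CPM at 18 DAP (SD, n = 6 each), which edgeR put at -1.50 ± 0.19 in log2 fold change (SE, adjusted p = 0.000636). At 32 DAP it averaged 10.2 ± 2.18 CPM, which edgeR put at -1.57 ± 0.19 in log2 against 18 DAP (adjusted p = 0.000125). Its 6 libraries at 28 DAP and at 32 DAP all lay below its 6 libraries at 18 DAP, with MT above WT at each stage. c80321_g1 averaged 5.19 ± 2.17 CPM at 28 DAP and 15.1 ± 3.83 CPM at 18 DAP, which edgeR put at -1.59 ± 0.23 in log2 fold change (adjusted p = 0.00199). At 32 DAP it averaged 4.46 ± 1.43 CPM, which edgeR put at -1.77 ± 0.23 in log2 against 18 DAP (adjusted p = 0.000205). With only the compared groups in the fit, neither passed at 28 DAP (edgeR adjusted p = 0.084 for c28106_g1 and 0.155 for c80321_g1).

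c58422_g1, the most abundant member, fell by 32 DAP in both tissues, by calls near the threshold that leaving out 1 library could undo. With 1 library left out at a time, its edgeR log2 fold change stayed between -1.22 and -1.05 in the nucellus. In the integument the change stayed between -1.29 and -1.17. In the nucellus c58422_g1 averaged 637 ± 130 CPM at 32 DAP and 1493 ± 717 CPM at 18 DAP (SD, n = 6 each), which edgeR put at -1.13 ± 0.21 in log2 fold change (SE, adjusted p = 0.0213). That call was lost when any of 7 nucellus libraries was left out, with an adjusted p of 0.0519 to 0.0746: MT at 18 DAP replicates 2 and 3, WT at 18 DAP replicate 1, MT at 32 DAP replicate 2, and WT at 32 DAP replicates 1, 2 and 3. In the integument it averaged 510 ± 103 CPM at 32 DAP and 1248 ± 439 CPM at 18 DAP, which edgeR put at -1.24 ± 0.21 in log2 fold change (adjusted p = 0.0244). In the integument all 6 libraries at 32 DAP lay below all 6 at 18 DAP. The integument call was lost when any of 7 integument libraries was left out, with an adjusted p of 0.0509 to 0.118: MT at 18 DAP replicate 3, WT at 18 DAP replicates 1 and 3, MT at 32 DAP replicates 1 and 2, and WT at 32 DAP replicates 2 and 3. It was also lost with only the compared groups in the fit (edgeR adjusted p = 0.0892).

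Whether the stage change differed between the tissues was tested by the interaction. In edgeR 0 members differed at 28 against 18 DAP, beside 0% of all tested features, and 0 at 32 against 18 DAP, beside 0.00174%. At an unadjusted p under 0.05 there were 4 members in each, beside 4.24% and 3.4% of all tested features, which is close to the members' share. DESeq2 called 2 members in each, beside 0.0174% and 0.0506%. Limma voom called 1 at 28 DAP, beside 0.00523%, and 2 at 32 DAP, beside 0.0471%. By edgeR, a change called in the nucellus and not in the integument is therefore not shown to differ between them. DESeq2 and limma voom did call a few members, which are not named here, so the answer depends on the method. The pair c28106_g1 and c80321_g1 changed less in the integument by its means. There c80321_g1 averaged 9.46 ± 2.25, 8.96 ± 2.44 and 8.78 ± 2.79 CPM at 18, 28 and 32 DAP (SD, n = 6 each). c28106_g1 averaged 25.1 ± 8.97, 21.9 ± 6.69 and 19.5 ± 5.73 CPM.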

How the data were processed

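For the 36 libraries the authors deposited estimated counts in 1 table and FPKM in another. Per the labels' protocols, 10 to 20 ng of total RNA was amplified with random primers and sequenced as paired reads on 2 Illumina instruments, with no record of which library ran on which. Per the submitters' processing notes, cutadapt, Bowtie2, RSEM and DESeq were used; for these, the sources used here give no versions, parameters or transcript reference. The deposited estimated counts, all whole numbers, were taken as they stand, and the deposited FPKM was used for levels between features and for alternatives. RSEM splits reads between similar sequences, so values of near-identical features are uncertain. Column names give the stage as a digit, read here in the order of the stages in the design text.

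CPM was computed on column sums for the rule and TMM-scaled for values per library. Tests used edgeR 4.0.16 in R 4.3.3 (filterByExpr over the 12 groups, robust quasi-likelihood fit of 12 group means over 36 libraries, Benjamini-Hochberg over 57344 features, threshold 0.05). Stage contrasts are means over both cultivars. DESeq2 1.42.0 and limma 3.58.1 (voom with quality weights, and log2(FPKM + 1) or log2(FPKM + 0.1)) were alternatives. The scripts were tested on simulated data. The tested features held 99.7% to 99.9% of each library's counts.

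The members and all choices were made with earlier results of these data known. Features named are the 2 with the largest smallest-of-6 difference, the 2 most abundant in MT, the 2 with the lowest WT total, and up to 2 called in each direction per tested contrast. Other features named are said to have been picked after their values were seen. No 2 replicates agreed within sampling noise.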

Additional observations from a re-analysis of the deposited data

How the results depend on the processing

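On other scales the members' median difference stayed between 0.37 and 0.57. Of the 100 members, 51 ranked in the first 100 on TMM-scaled CPM and 30 with the mean of the replicates; with a library or a replicate number left out, 11 to 90 did. At 28 against 18 DAP in the nucellus, DESeq2 called 5 members, voom 11 and a fit of only the compared groups 0; leaving out a library gave 2 to 3. At 32 against 18 DAP in the nucellus, voom called 7 and only the compared groups 5; leaving out a library gave 2 to 4. At 28 against 18 DAP in the integument, DESeq2 called 1, voom 9 and limma on log2(FPKM + 1) 1, with or without a minimum mean FPKM of 1; leaving out a library gave 0 to 6, the 6 without WT integument at 28 DAP replicate 1. At 32 against 18 DAP in the integument, DESeq2 called 2, voom 8, limma on FPKM 2 in each of its 3 forms and only the compared groups 0; leaving out a library gave 0 to 2. For the difference of stage changes between tissues, DESeq2 called 2 and voom 1 at 28 DAP, and DESeq2 2 and voom 2 at 32 DAP, where leaving out a library gave 0 to 1, the 1 without WT nucellus at 28 DAP replicate 1. The share called over all tested features also moved with the method. At 28 against 18 DAP in the integument it was 0% in edgeR, 0.316% in DESeq2 and 2.15% in voom. Counts in this section that have no such share beside them are not read as a trait of the members. The cause of these shifts was not tested. The tissue count ran from 42 to 64 under all alternatives.

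On log2(FPKM + 0.1) the median of all features moved by -0.15 at 28 against 18 DAP in the nucellus. Same-numbered nucellus and integument libraries of a group had correlated deviations (0.0639 to 0.556, 17 of 18 pairs over 0.1), and 17 of 18 nucellus libraries were closest to their own number, a hint from the data only. With the replicate block of 3 numbers, 48 members were called between tissues, 2 at 28 and 4 at 32 against 18 DAP in the nucellus, 1 at 32 against 18 DAP in the integument and 0 in the others; with a replicate block by capture, 64 were called between tissues. No share over all tested features is given for the fits with a block, so their counts are not set against the 35.5% of the main fit. Lists of 50 or 200 are subsets or supersets of this one and were not compared. Depth limits features near 1 CPM most.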
